A study of Mus musculus with 29 samples.

Results

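The comparison described here is that of the uterus of control mice on gestation day (GD) 5.5 with the uterus of control mice on GD4.5. It rests on 8 of the 29 arrays of the series, 4 per day, which were picked by exposure and day as their titles give them. The mice were CD-1 females that had received corn oil alone (CON) on postnatal days 1 to 5, and their uteri were taken in adult pregnancy. A second set of 8 arrays, from females given genistein at 50 mg/kg/day on the same postnatal days (GEN), and 6 CON arrays from GD1.5 and GD3.5 (3 each) served for comparison. Genistein is an isoflavone of soy that binds estrogen receptors. The labels give whole uterus as the organ, and give neither the age of the females at pregnancy nor whether implantation sites were separated from the tissue between them. Nor do they say whether samples came from different animals. The p-values therefore reflect how far samples differed, and part of that may be technical.

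In the mouse, the blastocyst attaches to the luminal epithelium late on the fourth day of pregnancy, and the stroma around it then decidualizes. Fibroblast-like stromal cells proliferate, become large and polyploid and take on a secretory program that includes BMP and Wnt ligands, alkaline phosphatase and members of the prolactin family. At the same time the epithelium that was receptive to the embryo is closed down around the attachment chamber, and progesterone acts through epithelial Ihh on its stromal receptor Ptch1. The 2 days compared fall within this period, and how far attachment had gone on either day was not measured.

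Levels are log2 intensities relative to the 75th percentile of each array, so that 0 is the level of that percentile and 1 unit is a factor of 2. Values are given in the order of replicates 1 to 4 of each day. A gene was called where limma's adjusted p was under 0.05. Each of slides 5 to 8 held exactly 1 GD4.5 and 1 GD5.5 CON array, so every change was also taken within slides. The scanner marked 66.6 to 80.9% of spots as well above background on the 8 arrays, and arrays of the same day correlated at r = 0.975 to 0.982 across genes. On the first principal component, which held 47.7% of the variance, the GD4.5 arrays stood at -0.41, -0.14, -0.42 and -0.38 and the GD5.5 arrays at 0.42, 0.39, 0.25 and 0.30. The days did not overlap, and GD4.5 replicate 2 lay nearest the GD5.5 arrays.

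Of 21677 genes tested, 6706 were called (30.9%), 3575 of them higher at GD5.5 (16.5%) and 3131 lower (14.4%). At an unadjusted p under 0.05 there were 8700. The change reached 2-fold in 2422 called genes, 1011 higher and 1411 lower, and 8-fold in 104 higher and 84 lower. The arrays of the 2 days did not overlap in 5113 of the called genes, against 5897 of all 21677 tested (27.2%). All 4 within-slide differences ran in the direction of the change in 6434 of the called genes. They come from the same values as the calls, and their share over all genes tested was not counted, so they add no support. The largest rises and falls measured on both days were named only where the days did not overlap, so for them the lack of overlap adds no support. With 1 array left out the called genes numbered from 5046 (without GD4.5 replicate 3) to 7497 (without GD4.5 replicate 2), among them 4957 and 6303 of the 6706. The median change over all genes tested was 0.02 and the median SE 0.22.

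**Figure D1:**
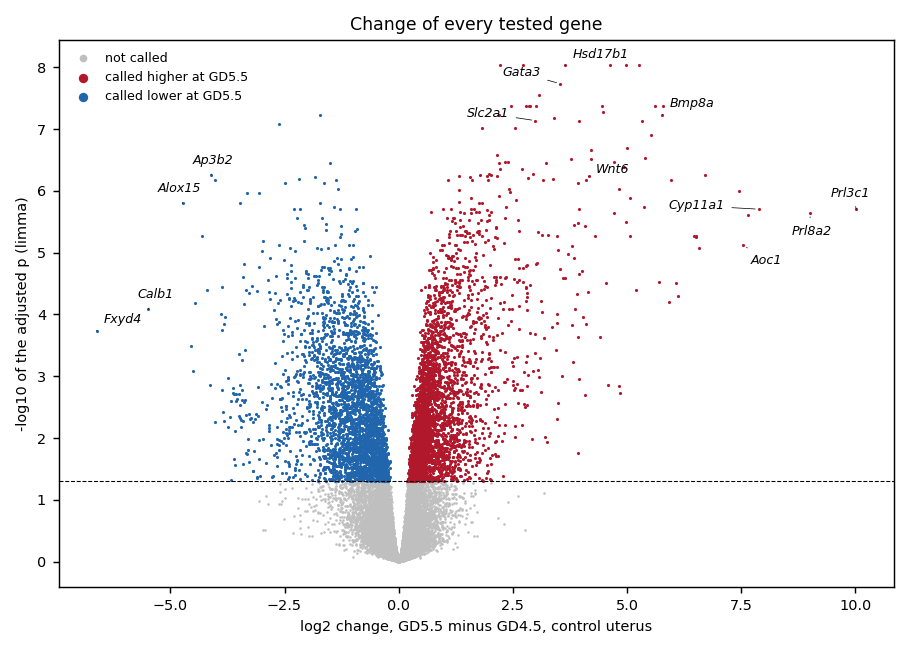
Change of each of the 21677 tested genes from GD4.5 to GD5.5 in control uterus (horizontal axis, log2) against the negative log10 of limma's adjusted p (vertical axis). Points above the dashed line at 0.05 were called, 3575 higher (red) and 3131 lower (blue). Among genes well above background on all 8 arrays, Cyp11a1 lies at 7.89 and Fxyd4 at -6.61, and a gene dim on all arrays of 1 day, such as Prl3c1, has only a lower bound.

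The most extreme rises were in placental and decidual hormones of the prolactin family, which lie together on chromosome 13. Prl3c1, a decidual prolactin-like hormone also known as PLP-J, stood at -8.05, -6.27, -8.59 and -8.22 at GD4.5 against 2.36, 2.93, 2.37 and 1.32 at GD5.5. It was not well above background on any GD4.5 array, and its rise was at least 307-fold (adjusted p = 1.98e-06). Prl8a2, the decidual prolactin-related protein and a standard marker of decidualization, stood at -5.73, -3.91, -6.41 and -6.18 at GD4.5 against 3.90, 3.98, 3.92 and 1.98 at GD5.5 (log2 change 9.0, SE 1.04, adjusted p = 2.3e-06), with 2 of the 4 GD4.5 arrays well above background. Both genes were separated between days by several units on every array, with the highest GD4.5 value on replicate 2 and the lowest GD5.5 value on replicate 4.

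Other members of the family went the same way. Prl6a1, the decidual prolactin-like protein B, was at -4.56, -3.67, -4.39 and -4.11 at GD4.5 against 1.99, 2.36, 2.49 and 0.76 at GD5.5 (log2 change 6.08, SE 0.88, adjusted p = 3.13e-05). Prl3d1, placental lactogen 1, rose by 5.07 (adjusted p = 5.32e-06) and Prl3d2, its close homolog, by 5.97 (adjusted p = 6.74e-07). Placental lactogen 1 is otherwise a product of trophoblast giant cells, and probes for such close homologs may bind more than 1 transcript, which was not tested. Prl8a9 was dim on all GD4.5 arrays and rose at least 14.6-fold (adjusted p = 5.08e-05). Of the 13 genes of the family listed, the receptor included, 7 were tested and 4 were called, all higher, 5 were too dim to test and 1 had no probe here. Prl3d2 and Prl8a9 were not on the list. The receptor gene Prlr changed by -0.06 (not called), and Prl3b1, placental lactogen 2, did not pass the test (0.20). On the array design's mouse build (NCBI35, mm7) the Prl3c1 probe lay at chr13:26569146-26569205 and the Prl8a2 probe at chr13:26719459-26719518.

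Among genes outside the prolactin family that were measured on both days, Cyp11a1 rose most. It encodes the mitochondrial enzyme that cuts the side chain of cholesterol, the entry step of steroid synthesis. Its level was -5.73, -4.25, -4.80 and -5.50 at GD4.5 against 3.18, 2.72, 2.86 and 2.53 at GD5.5 (log2 change 7.89, SE 0.90, adjusted p = 1.98e-06), and within slides the change was 7.43 to 8.59. Aoc1, the secreted amine oxidase that degrades histamine and putrescine, was at -2.27, 0.08, -1.20 and -1.77 at GD4.5 against 6.43, 6.64, 5.88 and 6.09 at GD5.5 (log2 change 7.55, SE 0.97, adjusted p = 7.64e-06; probe at chr6:48869166-48869225). Plekhg4, a guanine nucleotide exchange factor, was at -4.04, -0.42, -3.69 and -3.01 at GD4.5 against 5.45, 5.05, 4.30 and 4.65 at GD5.5 (log2 change 7.66, SE 0.89, adjusted p = 2.45e-06). In each of these genes the days were separated by more than 4 units, and GD4.5 replicate 2 was the highest of its day.

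Several further large rises were in genes with known metabolic or signalling roles. Drd4, a dopamine receptor, stood at -3.40, -2.78, -0.23 and -2.89 at GD4.5 against 4.54, 4.99, 4.11 and 3.90 at GD5.5 (log2 change 6.71, SE 0.69, adjusted p = 5.62e-07), with its highest GD4.5 value on replicate 3. Sct, the gut peptide secretin, was at -0.18, 2.07, 0.62 and 0.71 at GD4.5 against 7.64, 7.93, 6.90 and 7.03 at GD5.5 (log2 change 6.57, SE 0.85, adjusted p = 8.55e-06). Ass1, the urea cycle and arginine synthesis enzyme, was at -0.23, 0.26, -0.06 and 0.30 at GD4.5 against 6.01, 6.15, 5.23 and 5.31 at GD5.5 (log2 change 5.61, SE 0.47, adjusted p = 4.31e-08), with a GD4.5 spread under 1 unit. Aass, which begins lysine breakdown, rose by 5.78 (adjusted p = 4.31e-08), the zinc exporter Slc30a2 by 6.48 (adjusted p = 5.45e-06) and the membrane mucin Muc13 by 5.70 (adjusted p = 2.95e-05). Of genes not well above background on any GD4.5 array, Dgkk, a diacylglycerol kinase, rose at least 24.4-fold, Mlc1 at least 9.54-fold, the cystatin Cst9 at least 8.85-fold and the kininogen Kng2 at least 8.84-fold (adjusted p = 5.32e-06, 1.23e-07, 4.05e-05 and 3.08e-05). In all, 34 genes called higher were dim throughout GD4.5.

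**Figure D2:**
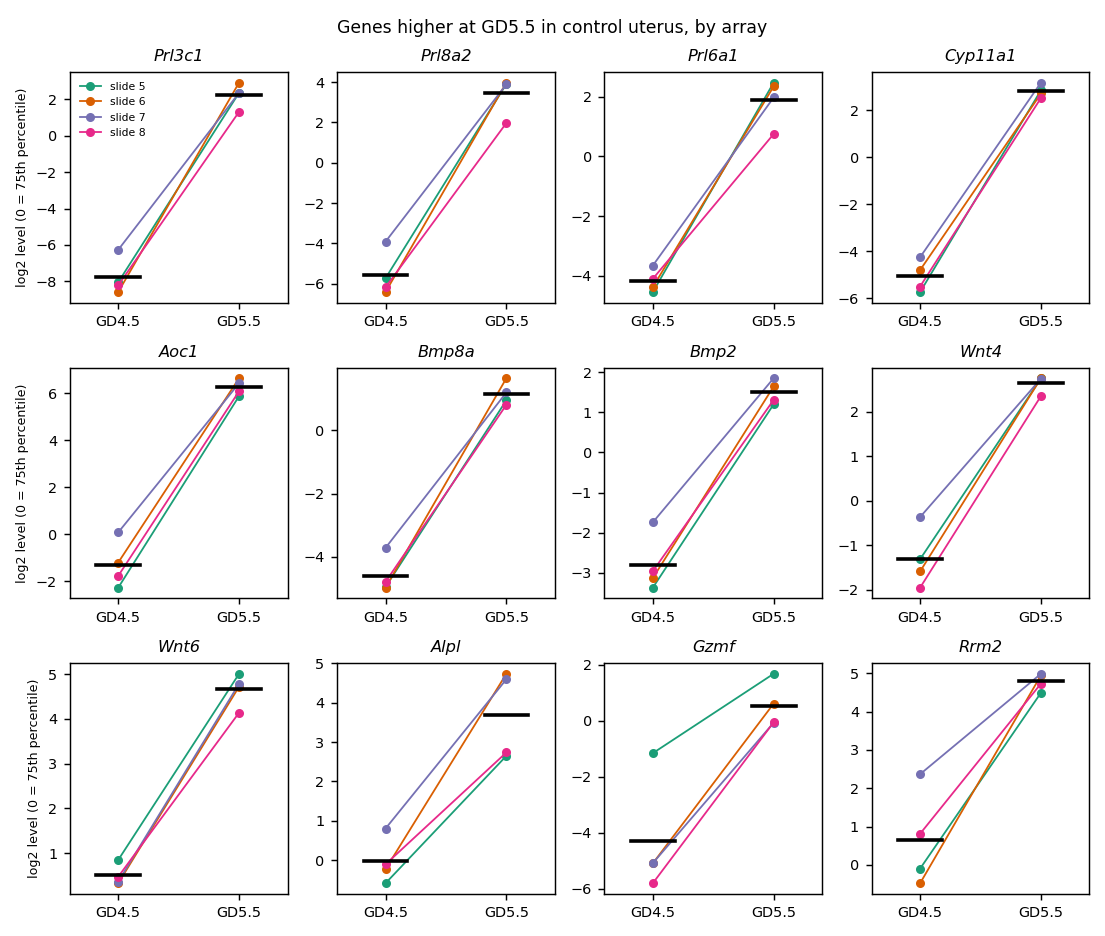
Log2 level relative to the array's 75th percentile in each control array (points) at GD4.5 and GD5.5 for 12 genes called higher, with lines joining the 2 arrays of a slide and black bars at the day means (n = 4). Every line rises in every panel, and the line of slide 7, which holds GD4.5 replicate 2, starts highest in Prl3c1, Aoc1, Bmp2 and Rrm2.

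BMP ligands, which signal through Smad proteins to pattern the decidua, were among the genes that rose, together with their feedback inhibitors. Bmp2, which stroma needs in order to decidualize, stood at -3.37, -1.74, -3.13 and -2.96 at GD4.5 against 1.85, 1.64, 1.20 and 1.31 at GD5.5 (log2 change 4.30, SE 0.54, adjusted p = 5.32e-06; probe at chr2:133302098-133302157). Bmp8a was at -4.96, -3.72, -4.98 and -4.80 at GD4.5 against 1.21, 1.66, 0.96 and 0.81 at GD5.5 (log2 change 5.78, SE 0.50, adjusted p = 5.83e-08), a 54.8-fold rise. The inhibitory Smad gene Smad6 was at -1.32, 0.35, -1.44 and -1.20 at GD4.5 against 1.98, 2.17, 1.62 and 1.73 at GD5.5 (log2 change 2.78, SE 0.38, adjusted p = 1.63e-05). The days did not overlap for any of the 3 genes, and GD4.5 replicate 2 stood above its day in each. Inhba, the activin subunit, rose by 1.53 (adjusted p = 0.00281). Fst, follistatin, which binds activin, rose by 1.56 (adjusted p = 0.0186), but its call was lost without GD4.5 replicate 1, GD4.5 replicate 3, GD4.5 replicate 4, GD5.5 replicate 1 and GD5.5 replicate 2 (adjusted p = 0.0512 to 0.0611). The inhibitor of DNA binding Id4 fell (log2 -0.89, adjusted p = 0.00228). Of 33 BMP and activin genes tested, 12 were called higher and 2 lower, and the median change was 0.12, but 0.02 to 0.19 when 1 array was left out and 0.22 under median scaling. These calls came to 1 lower without GD4.5 replicate 1 or 3 or 4 or GD5.5 replicate 1 or 2.

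Wnt genes were divided. Wnt4, a stromal ligand required for decidualization, was at -1.31, -0.37, -1.59 and -1.95 at GD4.5 against 2.74, 2.75, 2.75 and 2.35 at GD5.5 (log2 change 3.95, SE 0.45, adjusted p = 1.98e-06). Wnt6 was at 0.85, 0.36, 0.33 and 0.47 at GD4.5 against 4.79, 4.73, 5.01 and 4.14 at GD5.5 (log2 change 4.16, SE 0.43, adjusted p = 5.85e-07; probe at chr1:75024567-75024626), and its 4 arrays of either day lay within 1 unit of each other. Both ligands were higher on every GD5.5 array. The secreted inhibitors rose as well: Sfrp5 by 5.36 (adjusted p = 1.82e-06) and Dkk1, dim at GD4.5, at least 4.55-fold (adjusted p = 8.23e-05, and 0.0544 under normexp background correction).

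Epithelial and target genes of the pathway went down. Wnt7a, the ligand of the luminal epithelium, was at -0.77, -1.15, -0.97 and -1.42 at GD4.5 against -3.74, -4.03, -4.33 and -3.51 at GD5.5 (log2 change -2.83, SE 0.38, adjusted p = 1.24e-05). Sp5, a transcription factor that Wnt signalling induces, fell by 1.96 on the log2 scale (adjusted p = 0.000844), and the ligand Wnt16 changed by -1.87 (adjusted p = 0.00471). In total 8 higher and 12 lower of 37 Wnt genes were called, with a median of -0.13, but -0.05 without GD4.5 replicate 1, -0.27 without GD4.5 replicate 3, -0.21 without GD5.5 replicate 2, -0.26 under quantile normalization, -0.04 under median scaling and -0.23 over genes above background on all 8 arrays.

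Genes of the decidual cell itself rose more often than they fell. Of 36 tested, 16 were called higher and 6 lower, against 16.5% and 14.4% of all genes, with a median of 0.51, but 0.34 under the mean over probes. Alpl, the alkaline phosphatase whose activity stains decidual cells, stood at -0.59, 0.80, -0.23 and -0.11 at GD4.5 against 4.60, 4.74, 2.65 and 2.74 at GD5.5 (log2 change 3.71, SE 0.49, adjusted p = 1.04e-05). GD5.5 replicates 1 and 2 lay about 2 units above replicates 3 and 4. Tdo2, which degrades tryptophan, was at -1.71, 1.41, -2.51 and -0.54 at GD4.5 against 4.07, 4.10, 3.71 and 3.10 at GD5.5 (log2 change 4.58, SE 0.99, adjusted p = 0.00136). Here GD4.5 replicate 2 lay nearly 2 units above the next GD4.5 array and still below all GD5.5 arrays. Dio3, the deiodinase that inactivates thyroid hormone, rose by 3.20 (adjusted p = 0.0097), a call lost without GD4.5 replicate 1 (adjusted p = 0.0504).

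Transcription factors and junction proteins of stroma moved by smaller steps. Hand2, the progesterone-induced factor that restrains epithelial growth, was at 0.05, 0.72, -0.22 and -0.10 at GD4.5 against 2.26, 2.18, 1.75 and 1.89 at GD5.5 (log2 change 1.90, SE 0.31, adjusted p = 9.33e-05). Gja1, the main gap junction protein of stroma, rose by 1.72 (adjusted p = 0.00305) and Cebpb, a factor required for decidualization, by 1.13 (adjusted p = 0.00299). Cryab, a small heat shock protein, rose by 1.32 (adjusted p = 0.000468) on its brightest probe, while another of its probes was called in the opposite direction (log2 -0.67), and the mean over its probes gave an adjusted p of 0.158. The falls included Dio2, the deiodinase that activates thyroid hormone (log2 -1.37, adjusted p = 0.00388), Htra3, a serine protease (log2 -1.66, adjusted p = 0.00184), Gadd45a, a stress-induced growth arrest gene (log2 -1.40, adjusted p = 0.00851), and Lpar3, the lysophosphatidic acid receptor of the receptive uterus, at -0.62, -3.78, 0.75 and -1.44 at GD4.5 against -4.69, -5.04, -4.30 and -4.92 at GD5.5 (log2 change -3.47, SE 0.75, adjusted p = 0.0014). Hoxa10, a homeobox regulator of stroma, was called at 0.34 (adjusted p = 0.0314), a call lost without GD4.5 replicate 3, GD4.5 replicate 4, GD5.5 replicate 1 and GD5.5 replicate 2 (adjusted p = 0.0705 to 0.103), in a fit of only the arrays compared (0.0765), under normexp (0.0943) and under quantile normalization (log2 0.14, adjusted p = 0.395).

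Cell cycle genes were higher at GD5.5. Of 40 genes of DNA synthesis and mitosis tested, 36 were called higher and 0 lower, all 40 changes were above 0, and the median was 1.07. These calls came to 18 higher without GD4.5 replicate 3, with a median of 0.92. The median within a slide ranged from 0.82 to 1.66. Rrm2, the ribonucleotide reductase subunit that supplies deoxynucleotides, led the list at -0.10, 2.37, -0.48 and 0.81 at GD4.5 against 4.99, 4.95, 4.49 and 4.73 at GD5.5 (log2 change 4.14, SE 0.62, adjusted p = 4.37e-05). Birc5 (survivin) rose by 1.57 (adjusted p = 0.00434), the mitotic kinase Aurka by 1.57 (adjusted p = 0.00303), the checkpoint kinase Bub1 by 1.55 (adjusted p = 0.0052) and Mki67, the Ki-67 antigen, by 1.24 (adjusted p = 0.0089). In Rrm2 and Tdo2 alike the GD4.5 arrays were spread over more than 2 units and the GD5.5 arrays lay closer together.

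Regulators of the G1 phase were mixed. Of 26 tested, 12 were called higher and 3 lower (median 0.45; 7 higher without GD4.5 replicate 3). E2f7 and E2f8, the atypical E2F repressors linked to polyploidy, rose by 2.59 and 2.66 (adjusted p = 2.97e-05 and 0.00166). Ccnd3, the D cyclin of the decidua, rose by 0.99 (adjusted p = 0.000262) and the CDK inhibitor Cdkn1a by 1.13 (adjusted p = 0.00574). By contrast Ccnd2 was at 2.56, 2.55, 2.63 and 2.29 at GD4.5 against 0.62, 0.69, 1.32 and 1.07 at GD5.5 (log2 change -1.58, SE 0.19, adjusted p = 3.48e-06), and the retinoblastoma gene Rb1 fell (log2 -0.60, adjusted p = 0.000735; under the mean over its probes adjusted p = 0.136).

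Because these genes moved together, the 250 bases before their start sites were searched for short motifs in RefSeq promoters of build GRCm38.p6, on both strands. The promoters of 31 of the 40 listed cell cycle genes were matched (32 promoters in all), and 25 of them (78.1%) held CCAAT or its complement ATTGG, against 33.8% of all 32851 promoters. TTTGAA or TTCAAA, a form of the cell cycle homology region, was in 25% against 16%. The E2F-type motifs TTTGGCGC and TTTCGCGC (or GCGCCAAA and GCGCGAAA) were in 9.38% against 0.654%, which is 3 promoters. None of these motifs contains another, and a match is a description of the letters and no sign of binding. The windows of Rrm2 (chr12:24708004-24708253, plus strand), Cdk1 (chr10:69352913-69353162, minus strand), Ccnb1 (chr13:100786487-100786736, minus strand) and Cdc20 (chr4:118437344-118437593, minus strand) are shown 5′ to 3′ in gene orientation, ending at the base before the start site, because they carry the shared motif; they were chosen after the values were seen. They belong to ribonucleotide reductase, the mitotic kinase, its cyclin B1 partner and the activator of the anaphase complex, which changed by 4.14, 1.29, 1.48 and 1.31 on the log2 scale. Capitals mark CCAAT or ATTGG.
Rrm2: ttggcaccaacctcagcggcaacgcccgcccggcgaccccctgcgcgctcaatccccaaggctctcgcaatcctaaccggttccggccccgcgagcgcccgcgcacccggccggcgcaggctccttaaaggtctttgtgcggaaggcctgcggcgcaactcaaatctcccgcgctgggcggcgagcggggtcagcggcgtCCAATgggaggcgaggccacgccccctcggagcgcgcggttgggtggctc
Cdk1: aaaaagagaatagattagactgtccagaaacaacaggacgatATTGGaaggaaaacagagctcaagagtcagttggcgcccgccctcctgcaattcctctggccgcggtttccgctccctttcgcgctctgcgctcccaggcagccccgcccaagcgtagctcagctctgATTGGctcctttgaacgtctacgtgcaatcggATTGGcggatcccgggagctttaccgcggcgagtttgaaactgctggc
Ccnb1: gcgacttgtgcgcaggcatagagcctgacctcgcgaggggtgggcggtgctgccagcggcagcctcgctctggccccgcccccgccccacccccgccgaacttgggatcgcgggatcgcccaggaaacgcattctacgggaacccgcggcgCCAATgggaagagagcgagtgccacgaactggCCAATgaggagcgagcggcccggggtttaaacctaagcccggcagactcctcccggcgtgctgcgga
Cdc20: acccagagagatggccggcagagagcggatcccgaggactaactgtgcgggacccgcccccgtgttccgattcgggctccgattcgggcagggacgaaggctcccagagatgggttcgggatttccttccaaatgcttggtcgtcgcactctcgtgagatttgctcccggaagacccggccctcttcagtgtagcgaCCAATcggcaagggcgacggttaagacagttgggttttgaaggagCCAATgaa
In these windows the motif began 50 bases before the start site of Rrm2, 208, 80 and 48 before that of Cdk1, 99 and 67 before that of Ccnb1, and 53 and 8 before that of Cdc20.

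Steroid and cholesterol synthesis was a further group that rose. Of 24 genes tested, 17 were called higher and 1 lower, with a median of 0.92 (0 lower without GD4.5 replicate 1 or 3 or GD5.5 replicate 1 or 2). Besides Cyp11a1, Hsd17b1, which converts estrone to estradiol, was at -3.75, -4.72, -4.05 and -4.52 at GD4.5 against -0.72, -0.22, -0.41 and -1.12 at GD5.5 (log2 change 3.65, SE 0.27, adjusted p = 9.28e-09), among the smallest p-values of the comparison. Hsd3b6, a 3-beta-hydroxysteroid dehydrogenase, rose by 3.60 (adjusted p = 2.58e-05). Star, which carries cholesterol into mitochondria, was called in the other direction (log2 -0.97, adjusted p = 0.0222), a call lost without GD4.5 replicate 1, GD4.5 replicate 3, GD5.5 replicate 1 and GD5.5 replicate 2 (adjusted p = 0.0612 to 0.102), under normexp (0.0896) and in a fit of only the arrays compared (0.132).

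Glucose uptake and glycolysis genes rose in part. Slc2a1, the glucose transporter GLUT1, was at 1.83, 2.81, 2.19 and 2.34 at GD4.5 against 5.39, 5.82, 5.07 and 4.86 at GD5.5 (log2 change 2.99, SE 0.27, adjusted p = 7.29e-08), with all within-slide changes from 2.52 to 3.63. Hk2, hexokinase 2, rose by 1.97 (adjusted p = 0.000423) and the glycolytic enzymes Pgk1 and Eno1 by 1.12 and 0.91 (adjusted p = 0.000139 and 0.00126). Pfkfb3, which makes the activator of phosphofructokinase, fell (log2 -1.46, adjusted p = 0.000394). The list held 10 higher and 3 lower of 24 tested, with a median of 0.29, but 0.17 under quantile normalization.

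Chaperones of the endoplasmic reticulum, which fold secreted proteins, moved by less, with 16 higher and 1 lower of 26 tested, median 0.60. Examples were Creld2 (log2 1.05, adjusted p = 0.00228), Hyou1 (log2 0.94, adjusted p = 0.00661) and the disulfide isomerase Pdia6 (log2 0.90, adjusted p = 0.000161), while Trib3, a stress-induced pseudokinase, fell (log2 -1.15, adjusted p = 0.00329). Hyou1 lost its call under the mean over its probes (adjusted p = 0.871), which ran in opposite directions. Other probes of Pdia6 changed by 0.86 (called), 0.48 and 0.11 (not called).

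Genes of retinoid handling were called 8 higher and 2 lower of 19 tested, with a median of 0.25, but 0.38 under quantile normalization and 0.15 under normexp (1 lower without GD4.5 replicate 1 or 3 or 4 or GD5.5 replicate 1 or 3 or 4). Lrat, which stores retinol as ester, rose by 2.70 (adjusted p = 0.00605), Cyp26b1, which degrades retinoic acid, by 2.63 (adjusted p = 0.000169) and Stra6, the retinol uptake receptor, by 1.74 (adjusted p = 4.51e-06). Aldh1a1, which makes retinoic acid, fell (log2 -1.47, adjusted p = 0.00161). Storage, breakdown and uptake genes were thus higher while this synthesis gene was lower.

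The largest fall was in Fxyd4, a regulator of the sodium pump, at 3.15, 0.72, 6.04 and 3.42 at GD4.5 against -3.64, -3.72, -1.63 and -4.12 at GD5.5 (log2 change -6.61, SE 1.14, adjusted p = 0.000183; probe at chr6:117959046-117959105). Its GD4.5 arrays spanned more than 5 units, with replicate 2 lowest, and all GD5.5 arrays lay below them. Calb1, the calcium-binding protein calbindin of the receptive epithelium, was at 2.88, -0.64, 4.00 and 1.85 at GD4.5 against -3.81, -3.33, -2.86 and -3.86 at GD5.5 (log2 change -5.48, SE 0.88, adjusted p = 8.2e-05). Alox15, a lipoxygenase, was at 3.16, 1.59, 2.51 and 1.61 at GD4.5 against -2.53, -2.28, -2.71 and -2.51 at GD5.5 (log2 change -4.73, SE 0.53, adjusted p = 1.59e-06). Acod1 (Irg1), which makes itaconate and is a marker of the receptive luminal epithelium, was at 4.60, 4.15, 3.92 and 3.95 at GD4.5 against 0.70, 0.43, -0.51 and 0.38 at GD5.5 (log2 change -3.90, SE 0.63, adjusted p = 9.79e-05). For all 4 genes the lowest GD4.5 array stood above the highest GD5.5 array.

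Further falls included Plekhs1 (-4.45, adjusted p = 6.44e-05), the adaptor subunit Ap3b2 (-4.11, adjusted p = 5.49e-07), the lymphoid chemokine Ccl21c (-3.87, adjusted p = 3.55e-05), the epidermal lipoxygenase Alox12e (-3.87, adjusted p = 0.000176) and Sprr2f, an estrogen-responsive envelope protein of the epithelium, at 4.76, 3.93, 3.52 and 4.61 at GD4.5 against 0.39, 1.23, 0.95 and 0.31 at GD5.5 (log2 change -3.48, SE 0.83, adjusted p = 0.00293). Genes called lower that were dim on all GD5.5 arrays numbered 88. Among them were Gcnt3, a mucin glycosyltransferase (at least 4.02-fold lower), and Rgs6 (at least 3.97-fold lower), with adjusted p = 4.04e-05 and 1.59e-06. Both calls were lost under normexp background correction (adjusted p = 0.091 and 0.174).

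**Figure D3:**
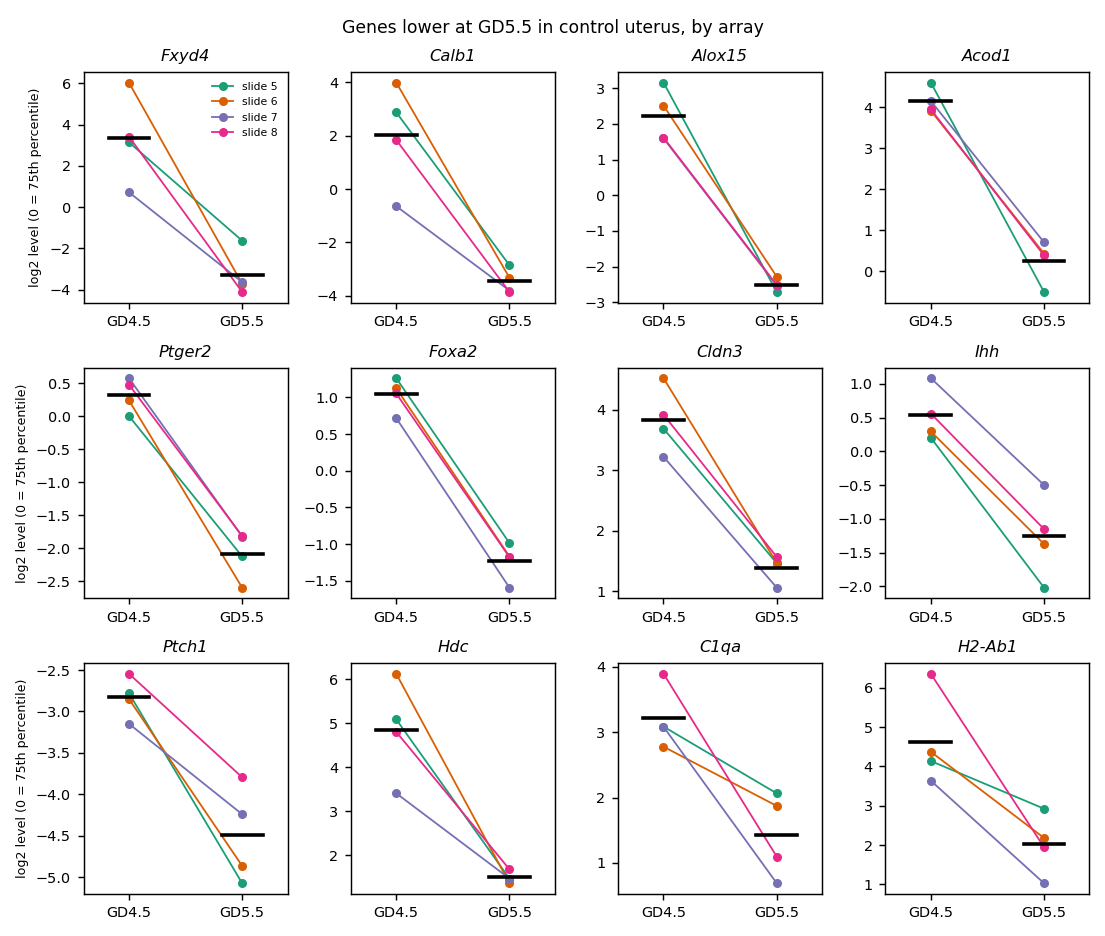
Log2 level relative to the array's 75th percentile in each control array (points) at GD4.5 and GD5.5 for 12 genes called lower, with lines joining the 2 arrays of a slide and black bars at the day means (n = 4). Every line falls, and in C1qa and H2-Ab1 the line of slide 8 starts highest, from 3.90 and 6.36 on GD4.5 replicate 4.

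Epithelial genes as groups were lower at GD5.5. In bulk tissue, fewer cells of a type and less RNA per cell cannot be told apart. Of 25 genes of the receptive or estrogen-stimulated epithelium tested, 2 were called higher and 12 lower (median -1.37). The exceptions that rose were Klf5, a transcription factor of the luminal epithelium (log2 2.15, adjusted p = 5.86e-06), and Lrat. Muc1, the surface mucin, was at -1.79, -2.52, -1.68 and -1.94 at GD4.5 against -3.96, -3.29, -3.36 and -3.27 at GD5.5 (log2 change -1.49, SE 0.38, adjusted p = 0.00457), while Ltf, the estrogen-induced lactoferrin, did not pass the test (log2 -2.86, adjusted p = 0.115). The lowest adjusted p of Ltf among the alternatives was 0.0211.

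General markers of simple epithelium were called 0 higher and 9 lower of 13 tested, all 13 below 0, with a median of -1.66, but -1.0 under normexp and -1.02 under the mean over probes. Cldn3, a tight junction claudin, stood at 3.69, 3.22, 4.52 and 3.92 at GD4.5 against 1.06, 1.47, 1.46 and 1.57 at GD5.5 (log2 change -2.45, SE 0.35, adjusted p = 2.54e-05). Cldn7 fell by 2.40 (adjusted p = 5.62e-05), Krt8, a keratin of simple epithelia, by 2.00 (adjusted p = 0.00028) and the epithelial factor Elf3 by 2.21 (adjusted p = 0.00233). The linear levels of the list (each relative to the 75th percentile) summed to 127 to 230 at GD4.5 and 73 to 97.6 at GD5.5, so the epithelial markers stayed present on every GD5.5 array.

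No gland gene was called higher in the main setting. Foxa2, the transcription factor that marks endometrial glands, was at 1.26, 0.72, 1.13 and 1.05 at GD4.5 against -1.59, -1.17, -0.99 and -1.18 at GD5.5 (log2 change -2.27, SE 0.38, adjusted p = 0.000126) and changed by -2.31 to -2.23 within slides. Wfdc3, a gland protease inhibitor, fell by 2.50 (adjusted p = 0.000805) on its brightest probe, while its other probe was not called (log2 -0.21, adjusted p = 0.692). Prss28, a serine protease secreted by glands, stood at 1.94, 5.77, 2.75 and 3.92 at GD4.5 against 6.02, 6.93, 6.15 and 6.35 at GD5.5 and did not pass the test (log2 change 2.77, SE 1.92, adjusted p = 0.31), although every GD5.5 array lay above every GD4.5 array. Prss28 reached an adjusted p of 0.0293 in an alternative. Of 8 gland genes tested, 0 were called higher and 3 lower, while their linear levels summed to 22.4 to 129 at GD4.5 and 102 to 211 at GD5.5. Lif, the gland cytokine of attachment, was not analysed here.

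In the progesterone, estrogen and hedgehog axis, the hedgehog arm was lower. Ihh, the ligand that progesterone induces in epithelium, was at 0.20, 1.08, 0.29 and 0.56 at GD4.5 against -0.50, -1.37, -2.02 and -1.15 at GD5.5 (log2 change -1.80, SE 0.53, adjusted p = 0.0123; under the mean over its probes adjusted p = 0.0687). Its receptor and target Ptch1 was at -2.78, -3.15, -2.85 and -2.54 at GD4.5 against -4.24, -4.86, -5.07 and -3.79 at GD5.5 (log2 change -1.66, SE 0.36, adjusted p = 0.00142), a call lost under normexp background correction (adjusted p = 0.0787). The hedgehog effector Gli1 fell by 1.43 (adjusted p = 0.000588), while Gli3, mostly a repressor in the pathway, rose (log2 0.72, adjusted p = 0.0031; 0.0518 under the mean over its probes). The ligand, its receptor Ptch1 and the target Gli1 were thus lower together.

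The steroid receptors themselves did not pass the test in the main setting. Pgr, the progesterone receptor, was at -1.65, -0.99, -1.52 and -1.54 at GD4.5 against -0.82, -1.21, -1.03 and -1.06 at GD5.5 (log2 change 0.40, SE 0.18, adjusted p = 0.0989), and Esr1, the estrogen receptor alpha, at 2.06, 1.45, 1.97 and 1.82 at GD4.5 against 1.09, 1.49, 1.59 and 1.54 at GD5.5 (log2 change -0.40, SE 0.17, adjusted p = 0.0848). In both genes the days overlapped. Among the alternatives the lowest adjusted p was 0.0211 for Pgr and 0.0172 for Esr1, so each was called in some setting. Other members that rose were Nr2f2 (COUP-TFII), a hedgehog target in stroma (log2 0.60, adjusted p = 0.00326), the growth factor receptor Fgfr1 (log2 1.21, adjusted p = 1.34e-05) and the coactivator Ncoa3 (log2 1.14, adjusted p = 1.33e-05). The list held 5 higher and 6 lower of 30 tested, a share of 36.7% against 30.9% of all genes. The higher calls alone compare with 16.5% of all genes. The median was -0.17, but -0.09 without GD5.5 replicate 2 and -0.08 under median scaling, and the lower count was 10 without GD4.5 replicate 2.

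EGF ligands and gp130 cytokines, which carry the attachment signal, were called 2 higher and 4 lower of 21 tested, a share of 28.6% against 30.9% of all genes (median -0.22, but -0.08 under normexp and -0.13 under median scaling; 0 higher without GD4.5 replicate 1, 1 higher without GD4.5 replicate 3 or GD5.5 replicate 1 or 2, 4 higher without GD4.5 replicate 4). Il6st, the gp130 receptor chain that leukemia inhibitory factor uses, was at 3.40, 3.02, 3.44 and 3.11 at GD4.5 against 1.78, 1.90, 2.28 and 1.90 at GD5.5 (log2 change -1.28, SE 0.16, adjusted p = 5.61e-06), and Socs3, a feedback inhibitor that this pathway induces, fell by 1.03 (adjusted p = 0.00496). Hbegf, an early epithelial signal at the attachment site, rose by 0.93 (adjusted p = 0.0166), a call lost without GD4.5 replicate 1, GD4.5 replicate 3 and GD5.5 replicate 1 (adjusted p = 0.0536 to 0.0792) and in a fit of only the arrays compared (0.0899). Il11, a cytokine of the decidua, stood at -2.53, 1.76, -1.93 and 0.80 at GD4.5 against 1.82, 2.03, 1.29 and 1.07 at GD5.5 (log2 change 2.03, SE 0.79, adjusted p = 0.0534), and GD4.5 replicate 2 overlapped the GD5.5 arrays. Il11 reached an adjusted p of 0.00525 in an alternative. Areg, amphiregulin, was not called (log2 -2.16, adjusted p = 0.174).

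Prostaglandin receptors fell while a synthase rose. Ptges, the inducible prostaglandin E synthase, was at -0.66, 0.04, -0.66 and -0.71 at GD4.5 against 1.64, 1.56, 1.53 and 0.93 at GD5.5 (log2 change 1.91, SE 0.30, adjusted p = 5.93e-05). Ptger2, a prostaglandin E receptor, was at 0.01, 0.58, 0.25 and 0.48 at GD4.5 against -1.82, -2.60, -2.12 and -1.81 at GD5.5 (log2 change -2.42, SE 0.41, adjusted p = 0.000151). Ptger3, another receptor of this prostaglandin, and Ptgfr, the receptor of prostaglandin F2 alpha, fell by 2.38 and 1.4 (adjusted p = 0.000112 and 0.000574), and the thromboxane synthase Tbxas1 by 1.54 (adjusted p = 0.000554). Ptgs2, cyclooxygenase 2, did not pass the test (log2 1.66, adjusted p = 0.121), although its days did not overlap. Its lowest adjusted p among the alternatives was 0.0275. Over the list 3 higher and 8 lower of 19 were called (median -0.34, but -0.60 without GD5.5 replicate 3; 5 lower without GD4.5 replicate 3, 4 lower without GD5.5 replicate 1).

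Some vascular ligands rose, and the markers of endothelium were mixed. Angpt2, which loosens vessels for sprouting, was at 0.44, 0.48, 0.13 and 0.42 at GD4.5 against 2.06, 1.95, 2.61 and 1.87 at GD5.5 (log2 change 1.75, SE 0.20, adjusted p = 1.59e-06). Vegfa rose by 0.89 (adjusted p = 0.000693), the hypoxia factor gene Epas1 by 2.06 (adjusted p = 0.000255) and Esm1, a tip cell proteoglycan, by 2.03 (adjusted p = 5.39e-05). Of 27 angiogenesis genes, 10 were called higher and 2 lower, a share of 44.4% against 30.9% of all genes. The lower count was 0 without GD4.5 replicate 1 or 3 or 4 or GD5.5 replicate 1 or 2, and 1 without GD5.5 replicate 4. The median of this list was 0.02, but 0.16 without GD4.5 replicate 2, with 14 changes above 0 and 13 below. Among 12 endothelial markers, Cdh5, the cadherin of endothelial junctions, rose (log2 0.85, adjusted p = 0.00406) and 4 fell (2 lower without GD4.5 replicate 1 or GD5.5 replicate 2), Sox17 most (log2 -1.66, adjusted p = 0.000113). Other probes of Sox17 changed by -1.86 (called) and -0.31 (not called). The median of the endothelial list was -0.01, but -0.05 to 0.03 when 1 array was left out, -0.07 under quantile normalization, 0.08 under median scaling and -0.10 under the mean over probes.

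Collagen genes were called lower more often than higher. Col6a1 and Col6a2, chains of collagen VI, fell by 1.16 and 1.17 (adjusted p = 0.000109 and 2.71e-05), and Col15a1 and Col18a1, basement membrane collagens, by 1.4 and 1.23 (adjusted p = 0.000862 and 9.2e-05). Lox, the collagen crosslinking enzyme, rose (log2 1.23, adjusted p = 0.000639), as did the laminin chain Lamc1 (log2 0.85, adjusted p = 0.00185). Collagens and matrix proteins counted 5 higher and 10 lower of 33 tested (median -0.14, but -0.02 without GD4.5 replicate 2, -0.06 without GD5.5 replicate 2, -0.22 under quantile normalization, -0.08 under normexp, -0.05 under median scaling and -0.07 with array weights; 3 higher without GD5.5 replicate 1), and proteases with their inhibitors 8 higher and 8 lower of 30. A2m, a broad protease inhibitor of decidua, was at -1.24, -1.62, -2.62 and -1.61 at GD4.5 against 1.05, 0.78, 1.87 and 0.40 at GD5.5 (log2 change 2.80, SE 0.41, adjusted p = 3.57e-05), Adamts9 rose by 1.94 (adjusted p = 3.06e-06), and the stromelysin Mmp3 fell by 2.07 (adjusted p = 0.000177).

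Smooth muscle markers, which come from the myometrium, were called 1 higher and 6 lower of 11 (median -0.54). Myh11, smooth muscle myosin, was at 5.39, 5.02, 5.77 and 5.16 at GD4.5 against 4.00, 3.45, 4.77 and 4.61 at GD5.5 (log2 change -1.13, SE 0.29, adjusted p = 0.00528), and the actin gene Acta2 changed by -0.74. The rise was in Des, desmin, which decidual cells also express (log2 0.78, adjusted p = 0.00197). Stromal markers went both ways, 4 higher and 3 lower of 11: Pdgfra rose (log2 0.64, adjusted p = 0.00976), while the proteoglycans Dcn and Lum and the adhesion molecule Vcam1 fell by 1.14, 0.84 and 1.47 (adjusted p = 0.000105, 0.00137 and 0.00129). Pdgfra lost its call under quantile normalization (adjusted p = 0.0541). The other probe of Dcn was not called (log2 -0.32), and other probes of Vcam1 changed by -1.65 (called) and -0.51 (not called).

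IGF binding proteins were among the falls of the IGF axis (2 higher and 4 lower of 13, median -0.18, but -0.11 without GD5.5 replicate 2, -0.29 without GD5.5 replicate 4, -0.10 under quantile normalization, -0.09 under median scaling and -0.06 under the mean over probes; 1 higher without GD4.5 replicate 1 or 3 or 4 or GD5.5 replicate 1 or 3 or 4). Igfbp5, Igfbp6 and Igfbp7 fell by 1.14, 0.88 and 0.77 (adjusted p = 0.00304, 0.00214 and 8.52e-05), and Irs1, the docking protein of the receptor, by 1.35 (adjusted p = 0.000852). Igfbp4 rose (log2 1.02, adjusted p = 0.00885).

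Genes of antigen presentation, macrophages and the interferon response were lower. All 6 called genes of MHC class II presentation fell (of 8 tested, median -2.15). H2-Ab1, a class II beta chain, was at 4.14, 3.64, 4.37 and 6.36 at GD4.5 against 1.03, 2.18, 2.92 and 1.94 at GD5.5 (log2 change -2.61, SE 0.61, adjusted p = 0.00235), and Cd74, the invariant chain, at 3.29, 2.71, 3.15 and 5.23 at GD4.5 against 0.23, 1.36, 2.04 and 1.25 at GD5.5 (log2 change -2.37, SE 0.60, adjusted p = 0.00448). In both, GD4.5 replicate 4 was the highest by about 2 units, and the other GD4.5 arrays were still above all GD5.5 arrays. Without that array 5 of the 8 genes were called lower, with a median of -1.63.

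Macrophage and dendritic cell markers were called 0 higher and 13 lower of 18, all 18 below 0, with a median of -1.18 (11 called, median -0.98, without GD4.5 replicate 4). C1qa, a complement subunit made by macrophages, was at 3.09, 3.08, 2.78 and 3.90 at GD4.5 against 0.69, 1.87, 2.06 and 1.10 at GD5.5 (log2 change -1.78, SE 0.35, adjusted p = 0.000681). C1qc fell by 1.61 (adjusted p = 0.00105). Interferon-induced genes were called 0 higher and 14 lower of 23 (median -1.28; 1 higher without GD4.5 replicate 1, 9 lower without GD4.5 replicate 4 or GD5.5 replicate 1). Examples were Oasl2 (log2 -1.83, adjusted p = 0.00104), Gbp3 (log2 -1.86, adjusted p = 0.00211) and Usp18 (log2 -1.76, adjusted p = 0.00625). The summed linear level of the macrophage list was 113 to 267 at GD4.5 and 51.3 to 99 at GD5.5.

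Mast cell and eosinophil markers were called 0 higher and 7 lower of 13 (median -1.5, but -0.72 under normexp; 3 lower without GD4.5 replicate 3 or GD5.5 replicate 1, 4 lower without GD5.5 replicate 4). Hdc, which makes histamine and is also expressed in uterine epithelium, was at 5.09, 3.41, 6.12 and 4.80 at GD4.5 against 1.48, 1.37, 1.47 and 1.69 at GD5.5 (log2 change -3.35, SE 0.50, adjusted p = 4.08e-05). With Aoc1 higher, the gene of histamine synthesis and a gene of histamine breakdown moved in opposite directions. Of 10 B cell and plasma cell genes 0 were called higher and 2 lower (5 lower without GD4.5 replicate 2), among them Jchain (log2 -3.33, adjusted p = 0.00429), and of 10 neutrophil genes 0 were called higher and 3 lower, among them Retnlg (log2 -4.31, adjusted p = 5.32e-06). T cell genes had 1 call each way of 8 (2 lower without GD4.5 replicate 2 or GD5.5 replicate 3). The shares called were 20% for B and plasma cells, 30% for neutrophils and 25% for T cells. None exceeded the 30.9% of all genes, and 4 of the 10 neutrophil changes were above 0.

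Granzymes of the uterine natural killer lineage rose. Gzmf was at -1.16, -5.08, -5.09 and -5.80 at GD4.5 against -0.07, 0.61, 1.68 and -0.05 at GD5.5 (log2 change 4.83, SE 1.05, adjusted p = 0.00144), with GD4.5 replicate 1 far above the other GD4.5 arrays. Gzmd was at 0.44, -2.04, -2.35 and -3.10 at GD4.5 against 1.34, 1.70, 2.88 and 1.29 at GD5.5 (log2 change 3.57, SE 0.74, adjusted p = 0.000998), again with that array highest of its day. Gzmc was at 1.54, 0.77, 0.16 and -0.93 at GD4.5 against 3.55, 2.85, 3.49 and 3.85 at GD5.5 (log2 change 3.06, SE 0.62, adjusted p = 0.000802). The days did not overlap for any of the 3, though for Gzmd the gap between GD4.5 replicate 1 and the lowest GD5.5 array was under 1 unit. The probes of these close homologs may bind more than 1 transcript, which was not tested.

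No listed receptor or lineage gene of natural killer cells was called higher with them. Ncr1, the lineage receptor NKp46, changed by -0.39, Klrb1c by 0.49 and the transcription factor gene Eomes by 0.41, and none was called. Gzma and Gzmb did not pass the test either (0.56 and 0.80). Il15ra, which presents the cytokine that sustains these cells, fell (log2 -0.80, adjusted p = 0.00144). Prf1 was called higher, at 0.96 to 1.44 across the alternatives, and lost its call in 6 of them. The list in all was called 4 higher and 2 lower of 18, a share of 33.3% against 30.9% of all genes. The lower count was 1 without GD4.5 replicate 1 or 4 or GD5.5 replicate 1 or 2. The list median was 0.25, but 0.0016 without GD4.5 replicate 2, -0.0035 without GD4.5 replicate 3, -0.04 without GD5.5 replicate 3 and 0.16 with array weights.

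Markers of tissues other than endometrium were examined in the same arrays. Of 19 trophoblast and embryo genes, 15 could be tested and 5 were called higher and 2 lower (1 lower without GD4.5 replicate 1 or 3 or GD5.5 replicate 1). Gata3, a trophoblast factor that other tissues also express, was at -2.33, -2.12, -1.92 and -1.45 at GD4.5 against 1.74, 1.34, 1.84 and 1.38 at GD5.5 (log2 change 3.53, SE 0.28, adjusted p = 1.84e-08). Tfap2c, of which the same holds, rose by 1.66 (adjusted p = 0.00059), and Prl3d1 is given above. Tpbpa was also called higher, at 0.67 to 1.67 across the alternatives, a call lost under normexp (adjusted p = 0.121). The falls were Elf5 (log2 -1.54) and Gata6 (log2 -1.02, but -0.70 and -0.05 on other probes). Elf5 lost its call without GD4.5 replicate 1 or 3 or GD5.5 replicate 1 (adjusted p = 0.0539 to 0.0901). The embryonic and trophoblast genes Cdx2, Esrrb, Hand1 and Nanog were too dim to test, and Pou5f1 changed by -0.19 (not called). The summed level of the list was 2.56 to 2.95 at GD4.5 and 7.36 to 11.1 at GD5.5, and the part of embryonic tissue in the rises was not tested.

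Of 10 ovarian genes tested, Cyp11a1 rose and Star was called lower, and the other 8, among them Inha (-0.68), Foxl2 (0.50) and Amh (0.13), were not called. Red blood cell and adipocyte genes had no call (3 lower without GD5.5 replicate 3 among red blood cell genes), but their levels were uneven between arrays. Adipocyte genes summed to 1.98 to 25.3 at GD4.5 and 2.8 to 18.9 at GD5.5, and their median change of -2.14 came with within-slide values from -4.16 to 0.23.

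**Figure D4:**
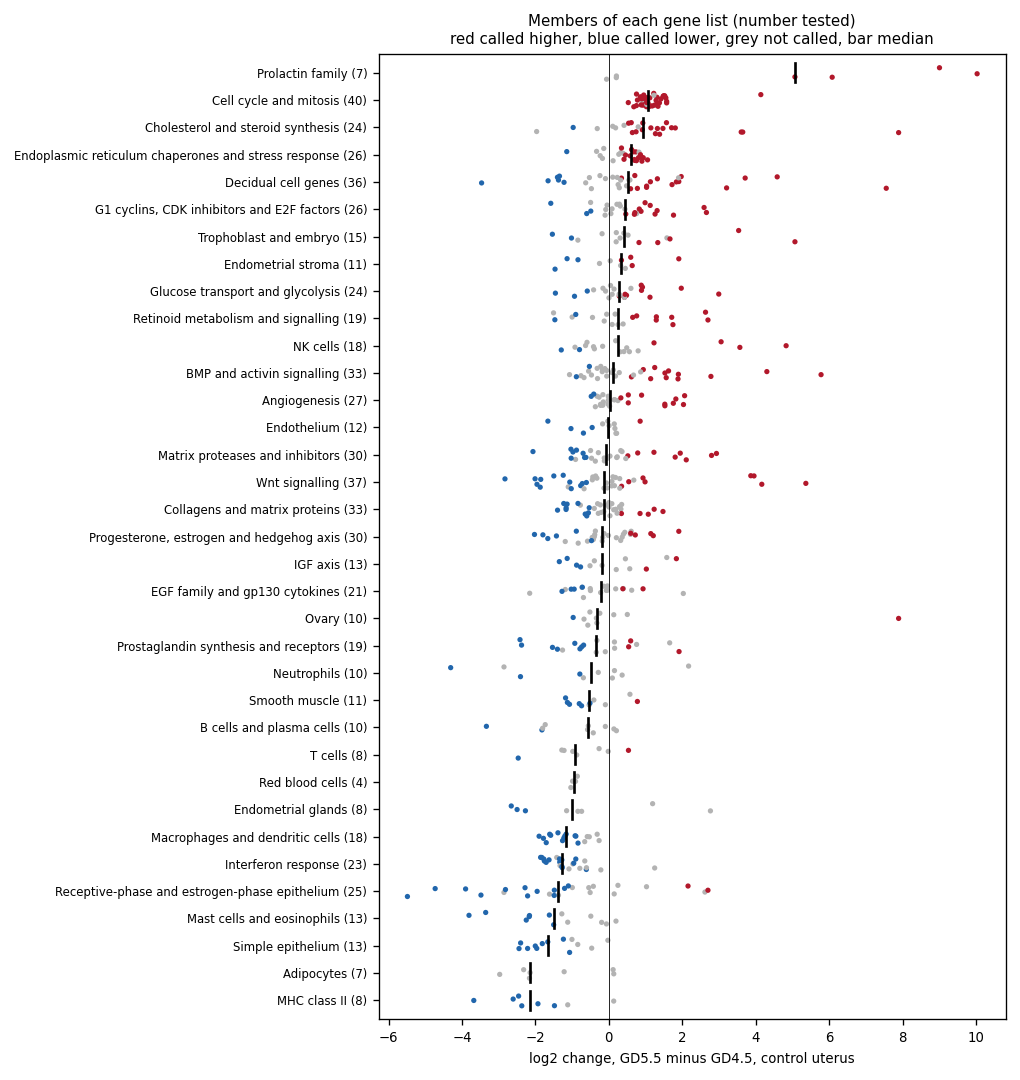
Log2 change from GD4.5 to GD5.5 in control uterus (horizontal axis) of each tested member (point) of the 35 gene lists, ordered by median (black bar), with the number tested in brackets. The prolactin list (median 5.07, but 2.63 over genes above background on all 8 arrays and 1.07 with no filter on dim probes) and the cell cycle list (median 1.07, no member below 0) stand at the upper end, and MHC class II (median -2.15) at the lower end.

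The same day change was then set beside that of the GEN uteri, which share no array with it. Unlike in CON, the GEN days were not balanced by slide. Replicates 1 to 4 lay on slides 5, 6, 8 and 5 at GD4.5 and on slides 7, 6, 7 and 8 at GD5.5. The part of slide in the correlation, slope and list medians given below was not tested. In GEN 4692 of 20938 genes were called (22.4%). Across the 20701 genes tested in both, the CON and GEN changes correlated at Pearson r = 0.75, which is across genes that are not independent replicates. Of 6641 genes called in CON and tested in GEN, 6432 changed with the same sign and 3416 were also called that way, while 6 were called with the opposite sign. Over genes called in CON, which are chosen for their size there, the slope of the GEN on the CON change was 0.66.

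The prolactins, Bmp2 and Wnt4 also rose in GEN. Prl8a2 changed by 7.40 there against 9.0 in CON, Bmp2 by 3.18 against 4.30 and Wnt4 by 2.93 against 3.95 (adjusted p in GEN = 0.000104, 0.000466 and 0.00021). The cell cycle list had a median of 0.97 in GEN against 1.07 in CON, and the simple epithelium list -0.95 against -1.66. Of the 35 list medians, 31 had the same sign in both exposures and 4 did not. Of those 4, the neutrophil list had a median of 0.79 in GEN against -0.49 in CON. The mast cell and eosinophil list, of the same sign, stood at -0.03 against -1.5. These differences of list medians were not tested. The difference between exposures was tested itself, and 1 of 22549 genes was called (0.00443%), with 1679 at an unadjusted p under 0.05. That gene was Banp, a nuclear matrix and methylation-sensitive DNA-binding protein, which rose in CON, at 1.58, 1.43, 1.45 and 1.39 at GD4.5 against 1.98, 1.94, 1.84 and 1.93 at GD5.5 (log2 change 0.46, SE 0.11, adjusted p = 0.00296), and fell in GEN by 0.62 (adjusted p = 0.000731). The difference was 1.08 (SE 0.16, adjusted p = 0.0119). Under median scaling, with slide as a fixed block and with only the 16 arrays compared, limma called 0 genes (1787, 1937 and 1038 at an unadjusted p under 0.05), with Banp at an adjusted p of 0.1, 0.213 and 0.329. No other gene named here was shown to differ between CON and GEN in its day change.

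**Figure D5:**
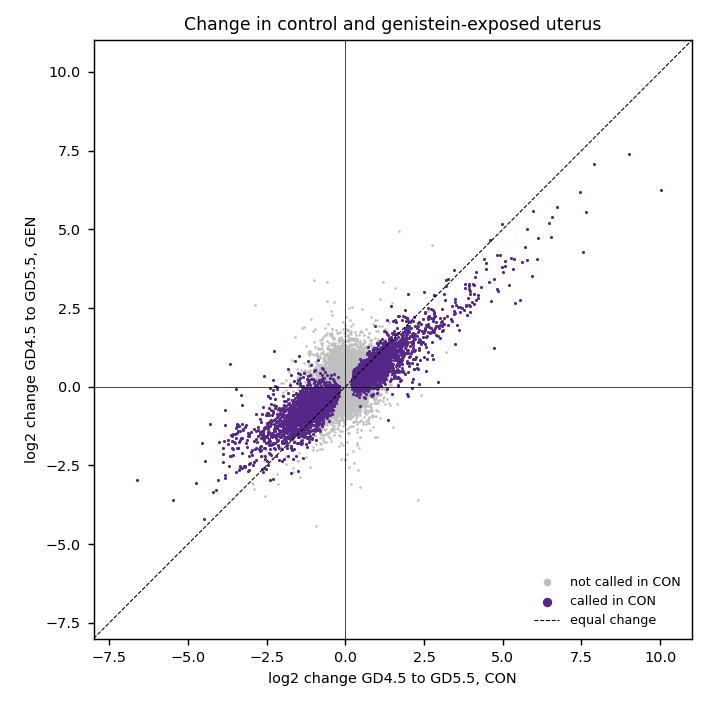
Log2 change from GD4.5 to GD5.5 of the 20701 genes tested in both exposures, CON on the horizontal and GEN on the vertical axis, with genes called in CON in purple and equal change dashed. Prl8a2 lies at 9.0 and 7.40, and Cyp11a1 at 7.89 and 7.08.

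Against the earlier step of pregnancy in the same exposure, the change from GD4.5 to GD5.5 was the broader by count. From GD1.5 to GD3.5 523 of 20615 genes were called (2.54%), with 3 arrays per day in place of 4. The earlier arrays lay on other slides: 1, 2 and 2 at GD1.5 and 1, 3 and 4 at GD3.5, so those days were not balanced by slide. Their 75th percentiles of intensity were 1571 to 1800, against 734 to 960 on the later arrays. The part of this split in the counts and differences was not tested. The difference of the 2 changes was called in 2958 of 22688 genes (13%), 1479 each way. With slide as a fixed block the calls came to 618 higher and 577 lower. Aoc1 fell in the earlier step (-5.17, adjusted p = 0.0121) and rose in the later, a difference of 12.72 (SE 1.48, adjusted p = 1.4e-05). Acod1 went the other way, up by 2.82 and then down, a difference of -6.72 (adjusted p = 9.67e-05). Mmp7, matrilysin of the epithelium, fell by 6.81 in the earlier step and stood at -1.56, 1.15, -2.54 and -0.39 at GD4.5 against 1.6, 1.99, 2.37 and 2.43 at GD5.5 in the later (log2 change 2.93, SE 0.84, adjusted p = 0.0105; lost without GD4.5 replicate 3, adjusted p = 0.053), a difference of 9.74 (adjusted p = 4.21e-05). Areg rose by 6.03 from GD1.5 to GD3.5 (adjusted p = 0.015) and was at -2.16 in the later step, a difference of -8.18 (adjusted p = 0.0037). The cell cycle list had a median of 0.95 in the earlier step and 1.07 in the later.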

How the data were processed

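Total RNA of whole uterus (500 ng per sample, per the labels' protocols) was labelled with Cy3 and hybridised to 1-colour Agilent 4x44K arrays. The authors deposited scanner files made with Agilent Feature Extraction 9.5, per the submitters' processing notes and the file headers, which give the background-subtracted processed intensity of each spot. Intensities in the authors' deposited series table were identical to these (largest difference 0%) and were not tried separately, and no column with values of an unmapped sample (0) was found. No aligner or genome build applies to the intensities, and printed probe coordinates are those of the array design (mm7).

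Intensities were put on a log2 scale and centred on the 75th percentile of the array's 43379 non-control spots, outlier spots as the scanner marked them were dropped, and repeated spots were reduced to their mean. A probe was named by its accession in the RefSeq gene list (22951 probes), else by symbol (6659) or synonym (3109) there, and 8455 probes kept the design's own name. The 41174 probes thus carried 27670 names, of which 8914 had several probes and were represented by the brightest. The number of arrays limits the precision.

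Group means of all 29 arrays were fitted with limma 3.58.1 in R 4.3.3 (data.table at version 1.17.8, statmod 1.5.0), with Benjamini-Hochberg adjustment over genes well above background on at least 3 of the arrays compared, and called at an adjusted p under 0.05. Contrasts were GD5.5 against GD4.5 in CON, its difference from GEN and its difference from the GD1.5 to GD3.5 change in CON. The fit was also run on simulated data, and the outcome is not reported here. A fold given as "at least" divides the mean of the brighter day by that of a floor. On each array of the dimmer day this floor is the lowest signal that passed as well above background, or the probe's own signal if that is larger. The 35 lists (678 genes, 669 with a probe, 648 tested) and 34 key genes (33 tested) were chosen with earlier results of these data known, as was the comparison itself. Named are the 12 largest rises and falls among called genes measured on both days without overlap, up to 6 each way by lower bound, the key genes, up to 4 called members each way per list, and up to 6 genes each way whose change differed. Any further gene was picked with its values in view, and a few genes that the rule names are not reported here.

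The day change was recomputed under quantile normalization, normexp background correction with an offset of 50, scaling to the median (percentile 50), other filters on dim probes, and the mean over a gene's probes. Model variants were a block for slide, fixed or random, a block for replicate number, a fit to only the arrays compared, variance trend with robust fit, array weights, and a further requirement of a 2-fold change. Each of the 8 arrays was also left out. Counts per list without each array were added after seeing the data. Replicate numbers did not pair the samples: deviations of same-numbered arrays correlated at -0.01, 0.08, -0.04 and 0.46. Deviations of the 2 arrays of a slide correlated at 0.20, 0.14, 0.24 and 0.46 on slides 5 to 8. The last value is the same in both, since both replicates 4 lay on slide 8. The main fit had no term for slide. With slide as a fixed block 3554 genes were called higher and 3041 lower.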

Additional observations from a re-analysis of the deposited data

Results flagged for a closer look

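Of 432 groups of 4 arrays (a named gene on 1 day), 25 (5.79%) had 1 array apart from the other 3 by more than Dixon's 95% limit. Chance alone passes this limit in about 1 in 20 groups of 4, so the number is near the chance share. The values that follow are log2 levels on the scale used above, and the causes were not tested.

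On GD4.5 replicate 2 these were Adamts9 at 1.94 (the other 3 arrays 1.19 to 1.29), Bmp8a at -3.72 (-4.98 to -4.80), Creld2 at 5.20 (4.05 to 4.12), Eno1 at 0.68 (0.04 to 0.07), Fst at 3.47 (1.74 to 2.00), Ptges at 0.037 (-0.71 to -0.66), Slc30a2 at -0.79 (-3.84 to -3.33) and Smad6 at 0.35 (-1.44 to -1.20). In all of these genes the array lay on the side of the GD5.5 arrays, and the same held for Jchain at -0.32 (2.61 to 2.87), a gene called lower. On GD4.5 replicate 4 the genes were the macrophage receptor gene Adgre1 at 3.66 (1.91 to 1.94), the neutrophil receptor gene Csf3r at -2.07 (-4.01 to -3.75), the class II chain H2-Aa at 3.91 (1.28 to 1.66) and Tbxas1 at 0.76 (-0.07 to 0.06). All 4 are immune genes or have an immune role, and all 4 were highest on that array. On GD4.5 replicate 1 the granzyme gene Gzmf stood at -1.16 (-5.80 to -5.08).

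At GD5.5, replicate 1 stood apart for the T cell gene Cd8b1 at 0.54 (0.06 to 0.13), Dleu7 at -7.98 (-5.06 to -4.86), Muc1 at -3.96 (-3.36 to -3.27) and Stat3 at 3.69 (2.82 to 2.95). Replicate 3 stood apart for Birc5 at 5.14 (5.56 to 5.59), E2f5 at 0.38 (0.08 to 0.12), E2f8 at 0.88 (1.70 to 1.75) and the class II chain H2-Eb1 at 0.49 (-3.35 to -2.93). Replicate 4 stood apart for Prl8a2 at 1.98 (3.90 to 3.98), Ptges at 0.93 (1.53 to 1.64) and Wnt4 at 2.35 (2.74 to 2.75).

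The day change of Banp differed between CON and GEN by 1.08 in the test of the difference itself (limma, adjusted p = 0.0119).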

How the results depend on the processing

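Leaving out each of the 8 arrays gave 2629 to 3916 genes called higher in place of 3575 and 2361 to 3581 called lower in place of 3131. The replicate block, whose numbers did not pair the samples, gave 1766 higher and 1720 lower. An added 2-fold threshold gave 1011 and 1411, and normexp background correction gave 1951 lower. Median scaling moved the median change over all genes to 0.12 from 0.02 and the share of calls that were higher to 62.7% from 53.3%; it was 57.2% under normexp.

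For the CON minus GEN difference, limma called 1 gene higher and 0 lower (1679 at an unadjusted p under 0.05). The higher count was 3 under quantile normalization, 7 under normexp, 2 under the filter on all arrays compared, 2 with variance trend and robust fit, and 0 under median scaling, slide as a fixed block, the replicate block (1287 unadjusted) and only the arrays compared. The lower count was 1 under quantile normalization, the filter on all arrays compared, slide as a random block and variance trend with robust fit, and 54 under normexp, which moved the median difference to -0.45 from -0.04 and gave 10579 unadjusted. Without each array it was 1 to 2 higher and 0 to 1 lower.

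For the later minus the earlier change, 1479 higher became 837 under normexp, 618 with slide as a fixed block, 3451 with array weights and 771 past 2-fold; 1479 lower became 798, 577 and 3228 under the first 3 of these and 933 under median scaling. Without each array it was 1101 to 1788 higher and 1099 to 1942 lower. Its replicate block was not run, since the earlier days have 3 numbers and the later days 4.

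Of 216 named genes tested, 208 were called. Of these, 129 were called in every alternative and a further 11 in every one that tested them. Calls were lost most often under the replicate block (36), without 1 array (31) and under normexp (29). Cd8b1 changed sign under the mean over its probes (-0.58, adjusted p = 0.246). Calls were also gained: Esr1, Pgr, Il11, Ltf, Ptgs2 and Prss28, not called in the main setting, were called in some alternative. Signal over background leaves only bounds for 34 of the genes called higher and 88 of those called lower.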

Other observations

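Proteasome subunits divided by type. Of 38 subunit genes tested, 17 were called higher and 3 lower, against 16.5% and 14.4% of all genes. Above 0 were 34 of the changes, against 11299 of all 21677 genes. The median was 0.36, but 0.19 under quantile normalization. The 3 that fell were Psmb8, Psmb9 and Psmb10, the catalytic subunits of the immunoproteasome, which interferon gamma induces in place of the constitutive ones. Psmb8 was at 4.22, 3.67, 3.5 and 5.09 at GD4.5 against 2.22, 2.67, 2.74 and 2.40 at GD5.5 (log2 change -1.61, SE 0.31, adjusted p = 0.000517). The days did not overlap, and GD4.5 replicate 4 was the highest, as in the class II genes. Psmb9 and Psmb10 changed by -1.12 and -0.51 (limma, adjusted p = 0.0298 and 0.0199), and neither was called without GD4.5 replicate 1, GD4.5 replicate 4, GD5.5 replicate 1 or GD5.5 replicate 4. Of the constitutive counterparts, Psmb7 was at 2.42, 2.80, 2.36 and 2.58 at GD4.5 against 3.13, 3.12, 3.02 and 2.91 at GD5.5 (log2 change 0.50, SE 0.13, adjusted p = 0.00458), Psmb6 changed by 0.36 (adjusted p = 0.0475) and Psmb5 by 0.28 (not called). The call of Psmb6 was lost under quantile normalization, normexp and median scaling and without GD4.5 replicate 1, 3 or 4 or GD5.5 replicate 1, 2 or 4, among other settings. The rises were small, and the number of subunits called higher was 9 without GD4.5 replicate 1 or 3, 11 without GD5.5 replicate 2 and 28 without GD4.5 replicate 2. That number was 10 under quantile normalization, 9 in a fit of only the arrays compared and 4 with the replicate block.

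Claudins, which form tight junctions, were called lower more often than higher. Of 23 claudin genes tested, 1 was called higher and 10 lower, against 16.5% and 14.4% of all genes, with a median of -0.65. Of those called lower, Cldn3, Cldn4 and Cldn7 also count in the simple epithelium list above and Cldn5 in the endothelial list. Cldn23 was at 0.26, 0.26, 1.46 and 0.68 at GD4.5 against -2.47, -2.46, -2.02 and -2.40 at GD5.5 (log2 change -3.0, SE 0.39, adjusted p = 9.45e-06), and Cldn4 fell by 1.81 (adjusted p = 0.000273). The claudin that rose, Cldn34c1 (0.58, adjusted p = 0.013), was not called without GD4.5 replicate 3 or GD5.5 replicate 2, and the lower count was 6 under normexp. Both families were chosen after their values were seen.

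Over called genes, the array of a day nearest the other day was counted. Among the 3575 genes called higher, GD4.5 replicate 2 was the highest of its day in 2136 (59.7%), and among the 3131 called lower it was the lowest in 2030 (64.8%). GD5.5 replicate 3 was the lowest of its day in 2071 of the genes called higher (57.9%) and the highest in 1391 of those called lower (44.4%). The genes were called on the same values, so these shares describe the arrays and are no test.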
